A study of Homo sapiens with 12 samples.

Results

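The genes described here are 39 neighbours at the far end of the long arm of chromosome 14, among 19775 genes that have a probe set of their own on the array. They were selected because that end of the chromosome read lower in the CD99-transfected clones than in the parental cells, so the difference between the lines chose them and is given below as a description, with no test. For each gene, the probe set that names it alone and has the highest mean over the 12 arrays stands for it. WARS and ADSSL1 are listed today as WARS1 and ADSS1.

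The cell line SaOS-2 was established from a human osteosarcoma, and its parental cells carry no construct. Sa/CD99 stands for SaOS-2 stably transfected with CD99, a small cell surface glycoprotein, as the clones wt22 and wt36, obtained by calcium phosphate transfection and kept under neomycin selection. All cells, parental and transfected, were harvested at day 0 and after 7 and 14 days in osteogenic medium, with 1 Affymetrix array per sample, which gives 2 parental arrays and 1 array of each clone per day. Each clone descends from a single selected line, so the spread within a Sa/CD99 group is a spread between clones, and for the parental pair of a day no label mentions separate cultures. P-values below therefore reflect the spread of these arrays alone. Between the parental arrays of a day all of that spread may be technical, and between the clones part of it. Values are log2 signals. Because RNA was taken from whole cultures, fewer cells of a type and less RNA per cell cannot be told apart.

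The array medians lay between 5.25 and 5.31, and the parental pairs differed less (SD of the difference over probe sets 0.11 to 0.13) than the pairs of clones (0.35 to 0.36). RUNX2, SP7, ALPL, COL1A1, COL1A2, SPARC and IBSP, markers of osteoblasts, passed the signal filter, which left out probe sets whose signal did not exceed 100 on 9 or more of the 12 arrays. SPP1 did not pass, and PTPRC, PECAM1, CDH5, KRT19, DES and MYOD1, which mark blood, endothelial, epithelial and muscle cells, stayed below it as well. EPCAM, an epithelial marker, passed with a mean level of 8.24 and read lower in the clones by a mean difference of -0.41. Of the osteoblast markers, ALPL (-0.61), IBSP (-0.58) and COL1A2 (0.75) also differed between the lines on average, and the part of these shifts in the values below was not tested. One probe set of CD99 itself goes against the labels, with 11.26 to 11.88 on the parental arrays and 6.67 to 8.88 on the arrays labelled Sa/CD99. The other read 12.29 to 12.74 on all 12 and did not separate the lines. The paper reports that real-time PCR verified CD99 in every profiled sample, and those values were not analysed here. The direction of every comparison between lines below rests on the labels.

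The group is defined by place, not by function. Its members include transcription factors and corepressors (YY1, RCOR1, MTA1), chaperones (HSP90AA1, BAG5), parts of the protein synthesis machinery (EIF5, WARS), motor proteins (DYNC1H1, KLC1), signalling adaptors and phosphatase subunits (TRAF3, PPP2R5C), and enzymes of energy and nucleotide metabolism (CKB, ADSSL1). The segment also holds the imprinted DLK1 and MEG3 cluster, with its many small RNAs, and ends in the immunoglobulin heavy chain genes, which are active in B cells.

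Promoter windows were taken from RefSeq (GRCh38.p14), 300 bases each, of which 250 lie before the annotated start, and 38 of the 39 members had one. The 150 bases just before the start are shown for 4 members, picked by the probe set that stands for each gene. MTA1 and CRIP2 had the lowest mean differences of the clones from SaOS-2. PACS2 and DYNC1H1 were nearest to the parental level among members that passed the signal filter. The stretches lie on the plus strand at chr14:105472795-105472944 (CRIP2), chr14:105419677-105419826 (MTA1), chr14:105314598-105314747 (PACS2) and chr14:101964423-101964572 (DYNC1H1), and capitals mark matches on either strand to the motifs searched.
CRIP2: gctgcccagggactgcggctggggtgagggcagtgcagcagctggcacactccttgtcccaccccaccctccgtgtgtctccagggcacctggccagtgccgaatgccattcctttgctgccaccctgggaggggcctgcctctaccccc
MTA1: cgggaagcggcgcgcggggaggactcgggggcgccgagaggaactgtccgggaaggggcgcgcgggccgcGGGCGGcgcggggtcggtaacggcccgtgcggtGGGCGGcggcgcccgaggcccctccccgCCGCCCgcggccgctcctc
PACS2: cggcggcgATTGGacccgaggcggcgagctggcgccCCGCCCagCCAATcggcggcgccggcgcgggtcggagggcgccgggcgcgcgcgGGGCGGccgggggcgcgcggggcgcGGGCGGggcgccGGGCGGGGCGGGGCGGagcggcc
DYNC1H1: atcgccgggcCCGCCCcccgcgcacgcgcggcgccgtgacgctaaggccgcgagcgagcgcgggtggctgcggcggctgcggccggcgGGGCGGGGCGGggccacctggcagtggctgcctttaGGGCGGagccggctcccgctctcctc
The motifs were the GC box GGGCGG, the CCAAT box CCAAT, the TATA box TATAAA, the YY1 core GCCATNTT and the heat shock element GAANNTTC, and overlapping matches were counted separately. Before the CRIP2 start no match was found, whereas the MTA1 stretch held 3 GC boxes, PACS2 held 6 GC boxes and 2 CCAAT boxes, and DYNC1H1 held 4 GC boxes. Over the whole windows, a GC box was present in 35 of 38 members (92.1%), against 72.2% of the windows of genes that passed the signal filter and 44.6% of all 27305 windows. A CCAAT box was present in 16 members (42.1%), against 37.6% of the windows of passing genes and 35.7% of all windows. A TATA box was present in 1 (2.63%), against 5.08% and 11.95%. The YY1 core was found in 3 members (7.89%), against 11.4% and 6.82%, and the heat shock element in 1 (2.63%), against 4.45% and 6.87%. These matches describe the letters of the windows only. The 24 members on the plus strand and the 14 on the minus strand had median differences of -0.50 and -0.50.

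Across the 39 members the median difference of the clones from SaOS-2, averaged over both clones and the 3 days, was -0.50 on the log2 scale, which is 70.8% of the parental signal. The median was -0.54 at day 0, -0.54 at day 7 and -0.41 at day 14 in clone wt22, and -0.44, -0.45 and -0.55 in clone wt36. On average 36 members read lower in both clones, 1 read higher in both, and for 2 the clones lay on opposite sides of the parental mean. Over all 19775 genes, 25.2% read lower in both clones. In 32 members all 6 comparisons of a clone with the parental mean of its day were negative, as in 1271 of all genes. The median SD between parental arrays of a day was 0.06 over the members. Both clones lay below both parental arrays in 35 members at day 0, 33 at day 7 and 32 at day 14, and in 29 on every day. Over all 19775 genes these patterns occurred in 15.4%, 18.4% and 19.7% of genes and, on every day, in 4.07%. The mean was at least 1.5-fold lower in 12 members, against 1.37% of all genes. These counts use the contrast that chose the members and are not evidence about them. The median mean difference of all genes was 0.03, and of the 9729 that passed the signal filter 0.02.

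Of the 39 members 35 passed the signal filter, and DEGS2, GPR132, CRIP1 and TMEM121 stayed below it on all 12 arrays. The filter is not independent of the difference between the lines. XRCC3 passed through 4 parental arrays alone, with none of its 6 clone arrays above the floor of 6.64, and CINP, PPP1R13B, ADSSL1 and AHNAK2 were above it on only 1 or 2 clone arrays. The passing members are therefore not set against the other 4 as a result.

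**Figure D1:**
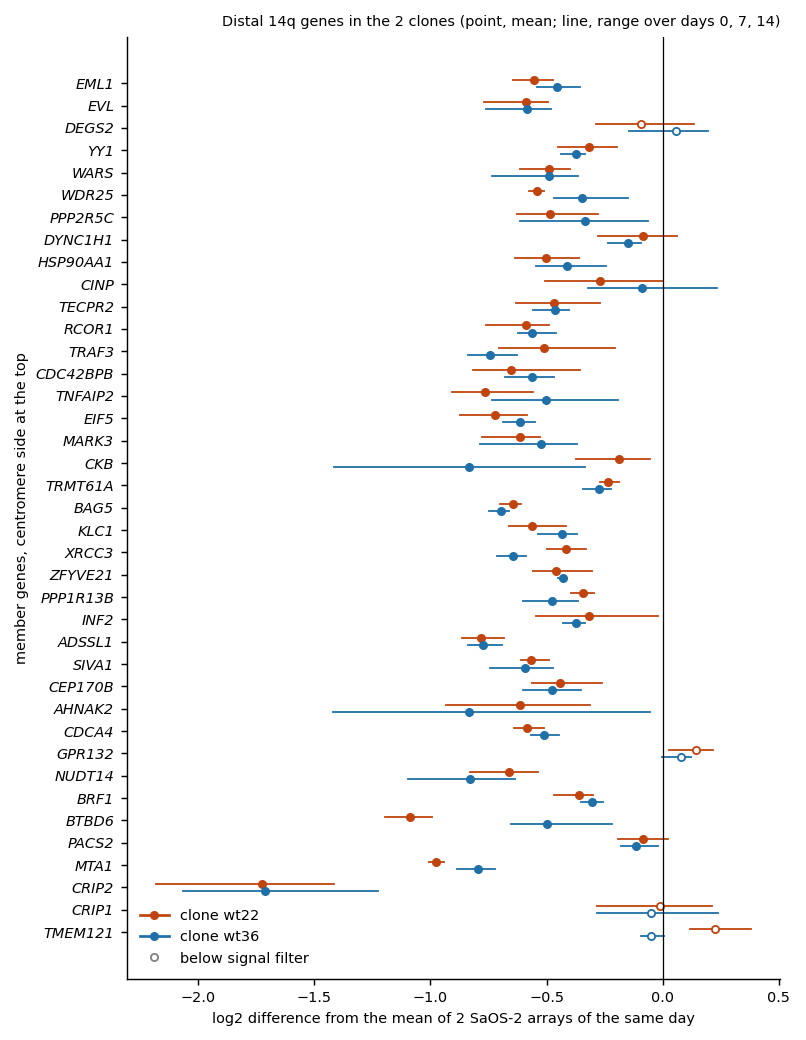
Each row is a member gene in its order along the chromosome, the x axis is the log2 difference of a clone from the mean of the parental arrays of the same day, points are means over 3 days and lines the range over days. All filled points lie left of 0, CRIP2 lies farthest left (-1.72), and open points, the members below the signal filter, lie around 0.

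Among regulators of transcription and chromatin, all 5 members (YY1, RCOR1, MTA1, BRF1 and CDCA4) were lower in both clones and below both parental arrays on every day, with a median of -0.55. MTA1, a subunit of the NuRD chromatin remodelling complex, read 9.81 and 9.75 at day 0, 10.19 and 9.96 at day 7 and 10.03 and 10.06 at day 14 in SaOS-2. At days 0, 7 and 14 it read 8.77, 9.09 and 9.10 in clone wt22 and 8.89, 9.35 and 9.26 in clone wt36. No clone array reached any parental array, and the mean difference of -0.89 corresponds to 54.1% of the parental signal. YY1, a zinc finger factor that can activate or repress, gave 11.43 and 11.59 at day 0, 11.35 and 11.49 at day 7 and 11.29 and 11.45 at day 14 in SaOS-2. In the clones it gave 11.31, 10.97 and 11.07 in clone wt22 and 11.07, 11.08 and 11.03 in clone wt36, in day order. The lines did not overlap on any day, and the mean difference of -0.34 was among the smaller ones of the group. That place rests on the probe set used, since the 4 passing sets of YY1 ranged between -0.55 and -0.34. CDCA4, a nuclear protein linked to E2F, measured 10.46 and 10.39 at day 0, 10.24 and 10.27 at day 7 and 10.37 and 10.42 at day 14 in SaOS-2. The clone arrays were at 9.82, 9.62 and 9.88 in clone wt22 and 9.97, 9.73 and 9.83 in clone wt36, each below both parental arrays of its day. RCOR1, a corepressor that joins the REST and LSD1 complex, read 9.83 and 9.86 at day 0, 9.33 and 9.33 at day 7 and 9.11 and 9.11 at day 14 in SaOS-2 and 9.34, 8.57 and 8.62 in clone wt22 and 9.23, 8.87 and 8.51 in clone wt36. Both clones lay below both parental arrays on each day, and the differences ranged between -0.76 and -0.46. BRF1, an initiation factor of RNA polymerase III, had a mean difference of -0.33.

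The 5 members that serve translation, RNA modification and protein folding (WARS, EIF5, TRMT61A, HSP90AA1 and BAG5) were also lower in both clones, with every clone array below both parental arrays of its day, and had a median of -0.49. HSP90AA1, the inducible cytosolic HSP90 chaperone, gave 13.35 and 13.44 at day 0, 13.70 and 13.70 at day 7 and 13.08 and 13.03 at day 14 on the parental arrays. The clones gave 13.03, 13.19 and 12.42 in clone wt22 and 12.85, 13.26 and 12.81 in clone wt36, with a mean difference of -0.46. The lines did not overlap on any day. EIF5, which acts in start codon selection, read 11.75 and 11.72 at day 0, 12.11 and 12.18 at day 7 and 11.24 and 11.17 at day 14 in parental cells. In day order it was at 11.15, 11.27 and 10.49 in clone wt22 and 11.13, 11.46 and 10.66 in clone wt36. Its parental and clone values moved in the same day order, highest at day 7 and lowest at day 14 in each line, and stayed apart by -0.67 on average. BAG5, a partner of the HSP70 chaperones, had nearly the same difference in all 6 comparisons: -0.61, -0.70 and -0.62 in clone wt22 and -0.67, -0.75 and -0.66 in clone wt36 at days 0, 7 and 14. WARS, the tryptophanyl-tRNA synthetase, had a mean difference of -0.49, and TRMT61A, a tRNA methyltransferase subunit, -0.26.

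All 8 members of the cytoskeleton and its motors (EVL, EML1, DYNC1H1, KLC1, INF2, CEP170B, CDC42BPB and AHNAK2) were lower in both clones on average, with a median of -0.50, and 5 of them were below both parental arrays on every day. DYNC1H1, the heavy chain of cytoplasmic dynein, was one of the exceptions. It read 11.04 and 10.97 at day 0, 10.89 and 10.92 at day 7 and 10.98 and 11.01 at day 14 in SaOS-2. The clones read 10.73, 10.87 and 11.05 in clone wt22 and 10.77, 10.79 and 10.90 in clone wt36, and at day 14 clone wt22 lay above both parental arrays. The mean difference was -0.12, or 92.2% of the parental signal. KLC1, a light chain of the kinesin motor, gave 10.31 and 10.27 at day 0, 10.04 and 10.06 at day 7 and 10.20 and 10.26 at day 14 in SaOS-2. Its clone values were 9.68, 9.39 and 9.82 in clone wt22 and 9.89, 9.52 and 9.86 in clone wt36, with no overlap on any day and a mean difference of -0.50. AHNAK2 encodes a large scaffold protein. Its differences from SaOS-2 were -0.93, -0.60 and -0.32 in clone wt22 and -0.05, -1.04 and -1.42 in clone wt36. Clone wt22 was the lower at day 0 and clone wt36 at days 7 and 14. INF2, an actin-nucleating formin, was near the parental mean in clone wt22 at day 14 (-0.02) and lower in its other comparisons. EVL, EML1, CDC42BPB and CEP170B had mean differences of -0.59, -0.50, -0.61 and -0.46.

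Of the 5 signalling members, PPP2R5C, MARK3, TRAF3 and TNFAIP2 were lower in both clones and GPR132 was not. PPP2R5C, a B56 subunit that directs the phosphatase PP2A to its targets, read 10.90 and 10.99 at day 0, 12.18 and 12.20 at day 7 and 11.30 and 11.45 at day 14 in SaOS-2. It read 10.67, 11.64 and 10.75 in clone wt22 and 10.33, 11.86 and 11.31 in clone wt36, so clone wt36 at day 14 lay between the parental arrays and the other clone arrays lay below. TNFAIP2, a gene induced by TNF, gave 9.87 and 9.85 at day 0, 9.19 and 9.19 at day 7 and 9.86 and 9.71 at day 14 in SaOS-2. The clones gave 8.95, 8.37 and 9.22 in clone wt22 and 9.28, 8.999 and 9.05 in clone wt36, below both parental arrays on every day. GPR132, a G protein-coupled receptor, stayed below the signal filter, with 5.81 and 5.88 at day 0, 5.17 and 5.51 at day 7 and 5.63 and 5.55 at day 14 in SaOS-2. Its clone values of 5.87, 5.54 and 5.81 in clone wt22 and 5.84, 5.47 and 5.71 in clone wt36 overlapped the parental ones on days 0 and 7 and lay above them at day 14, and its mean difference of 0.11 was the highest of the group. MARK3, a kinase that regulates microtubule-associated proteins, and TRAF3, an adaptor of TNF receptor signalling, had mean differences of -0.57 and -0.63.

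Of the 4 metabolic members, the enzymes CKB, ADSSL1 and NUDT14 were lower in both clones on every day. ADSSL1, the muscle-type adenylosuccinate synthase, read 7.49 and 7.41 at day 0, 6.98 and 6.92 at day 7 and 7.07 and 6.98 at day 14 in SaOS-2. Both clones stayed below those arrays, at 6.58, 6.26 and 6.23 in clone wt22 and 6.75, 6.11 and 6.24 in clone wt36, and the mean difference was -0.78, or 58.3% of the parental signal. NUDT14, a UDP-glucose pyrophosphatase, gave 9.89 and 9.80 at day 0, 10.05 and 10.07 at day 7 and 10.27 and 10.25 at day 14 in SaOS-2 and 9.01, 9.52 and 9.63 in clone wt22 and 9.21, 8.96 and 9.50 in clone wt36. Again the lines did not overlap, and the clones were furthest apart at day 7. CKB, brain-type creatine kinase, read 10.48 and 10.37 at day 0, 9.67 and 9.76 at day 7 and 10.23 and 10.27 at day 14 in SaOS-2. In the clones it read 10.05, 9.66 and 10.12 in clone wt22 and 10.09, 8.96 and 8.83 in clone wt36: the clones were close to each other at day 0 and apart at days 7 and 14, where clone wt36 was the lower. DEGS2, a sphingolipid desaturase, was below the signal filter, at 5.26 and 5.36 at day 0, 4.74 and 4.95 at day 7 and 5.05 and 5.29 at day 14 in SaOS-2. Its clone values, 5.02, 4.71 and 5.31 in clone wt22 and 5.17, 5.04 and 5.28 in clone wt36, lay on both sides of the parental ones, with means of -0.10 in clone wt22 and 0.06 in clone wt36.

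SIVA1, PPP1R13B, XRCC3 and CINP, which act in cell death, DNA repair and the cell cycle, had a median of -0.47, and 3 of the 4 were below both parental arrays on every day. SIVA1, an apoptosis regulator, read 10.72 and 10.61 at day 0, 10.36 and 10.45 at day 7 and 10.79 and 10.77 at day 14 in SaOS-2 and 10.06, 9.80 and 10.29 in clone wt22 and 10.19, 9.67 and 10.22 in clone wt36. PPP1R13B, the p53 partner ASPP1, gave 6.83 and 6.98 at day 0, 6.92 and 6.74 at day 7 and 7.19 and 7.42 at day 14 in SaOS-2. It gave 6.51, 6.53 and 6.96 in clone wt22 and 6.44, 6.46 and 6.70 in clone wt36, below both parental arrays on each day as for SIVA1. XRCC3, a DNA repair protein, had a mean difference of -0.53. CINP, which interacts with CDK2, overlapped the parental arrays at day 7, with a difference of 0.23 in clone wt36. Its parental arrays also differed more than those of most members (SD 0.18).

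TECPR2, ZFYVE21 and PACS2, proteins of autophagy and membrane traffic, had a median of -0.44. PACS2, a sorting protein of contacts between the endoplasmic reticulum and mitochondria, read 9.23 and 9.26 at day 0, 9.61 and 9.47 at day 7 and 9.54 and 9.62 at day 14 in SaOS-2. The clones read 9.16, 9.56 and 9.39 in clone wt22 and 9.22, 9.39 and 9.40 in clone wt36, and at day 7 clone wt22 lay between the parental arrays. Its mean difference of -0.10 was the smallest in size among members that passed the signal filter. Its neighbours MTA1 and CRIP2, in contrast, had the lowest mean differences of the group. That place of PACS2 rests on the probe set used, since its 4 passing sets ranged between -0.38 and -0.10. ZFYVE21, a protein of endosomes and focal adhesions, gave 9.02 and 8.96 at day 0, 8.79 and 8.93 at day 7 and 8.79 and 8.80 at day 14 in SaOS-2. In the clones it gave 8.48, 8.31 and 8.49 in clone wt22 and 8.58, 8.41 and 8.37 in clone wt36, below the parental arrays throughout. TECPR2, linked to autophagy, read 7.63 and 7.59 at day 0, 7.80 and 7.78 at day 7 and 8.23 and 8.25 at day 14 in SaOS-2 and 6.98, 7.52 and 7.73 in clone wt22 and 7.17, 7.39 and 7.68 in clone wt36. None of its clone arrays reached a parental array of the same day.

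CRIP2, a small protein with LIM domains that bind zinc, had the lowest values in the clones relative to SaOS-2. It read 8.37 and 8.30 at day 0, 9.39 and 9.39 at day 7 and 10.65 and 10.62 at day 14 in SaOS-2. The clones read 6.76, 7.98 and 8.46 in clone wt22 and 7.11, 7.32 and 8.80 in clone wt36. The differences were -1.58, -1.42 and -2.18 in clone wt22 and -1.23, -2.07 and -1.84 in clone wt36, and the mean of -1.72 corresponds to 30.4% of the parental signal. CRIP1, a related LIM protein encoded beside it, stayed far below the signal filter, at 3.97 and 3.93 at day 0, 4.04 and 3.85 at day 7 and 4.28 and 4.21 at day 14 in SaOS-2. Its clone values were 3.99, 4.16 and 3.96 in clone wt22 and 3.85, 3.66 and 4.48 in clone wt36, on both sides of the parental arrays. BTBD6, a BTB domain protein, read 9.88 and 9.80 at day 0, 10.28 and 10.20 at day 7 and 10.56 and 10.54 at day 14 in SaOS-2. Both clones lay lower, at 8.76, 9.25 and 9.36 in clone wt22 and 9.62, 9.62 and 9.90 in clone wt36, and clone wt22 was the lower on every day. TMEM121, a transmembrane protein below the signal filter, gave 5.04 and 4.60 at day 0, 4.85 and 5.07 at day 7 and 5.35 and 5.39 at day 14 in SaOS-2 and 4.999, 5.07 and 5.75 in clone wt22 and 4.76, 4.97 and 5.28 in clone wt36. Clone wt22 lay above and clone wt36 slightly below the parental mean, at 0.22 and -0.05. WDR25, a WD repeat protein, had a mean difference of -0.44.

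The members have 99 probe sets that name them alone, and 10 members have 1 such set. Of the 99, 94 read lower and 5 higher in the clones on average, with a median of -0.44. The 67 that passed the signal filter were among the 94, and the 32 below it, 27 lower and 5 higher, had a median of -0.13. Since the filter is not independent of the difference between the lines, this split is a description. Passing sets are not set against the others as a result. Sets of 1 member differed in size. The 5 passing sets of PPP2R5C ranged between -0.71 and -0.13, the 4 of PACS2 between -0.38 and -0.10, and the 2 of TRAF3 were at -0.63 and -0.11. Those of WARS (both -0.49) and EVL (-0.59 and -0.55) were close together. The set with the highest mean, used throughout, is thus the least lowered of the PACS2 sets. The same holds for YY1, whose 4 passing sets ranged between -0.55 and -0.34.

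Among passing genes, medians over neighbouring genes were lowest at the end of the chromosome in gene order. Single genes elsewhere on the chromosome also read low, among them FLRT2 (-2.57, below every member), SERPINA1 (-1.08) and ASB2 (-0.84). Genes of chromosome 14 that passed the signal filter were taken in runs of 20 counted from that end, using RefSeq for order alone. The last run, from ATP5MJ to ELK2AP with 12 members, had a median of -0.56, and the next, from DYNC1H1 to PPP1R13B with 17 members, -0.48. The third run, from DICER1 to PPP2R5C with 6 members, had -0.35, and the fourth, from DGLUCY to SERPINA1 with none, -0.13. The other runs lay between -0.22 and 0.01. In the last 3 runs the medians of the clones were -0.58, -0.46 and -0.37 in wt22 and -0.50, -0.49 and -0.32 in wt36. Since the members fill most of these runs, the medians describe the selection too. They also depend on the signal filter: with all genes kept, the last run (MTA1 to IGHV7-81, with 4 members) had a median of -0.0054, and the next 3 had -0.40, -0.50 and -0.145. The 282 passing genes of 14q before EML1, the member nearest the centromere, had a median of -0.12. Of these, 182 (64.5%) were lower in both clones and 29 higher, against 29.8% of all passing genes lower in both. On every day both clones lay below both parental arrays in 48 of the 282, and in 629 of all 9729 passing genes. Lower readings in both clones were thus not particular to the members. Over whole chromosomes, the median of passing genes was -0.14 for chromosome 14, and the lowest was that of chromosome 18 (-0.40).

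**Figure D2:**
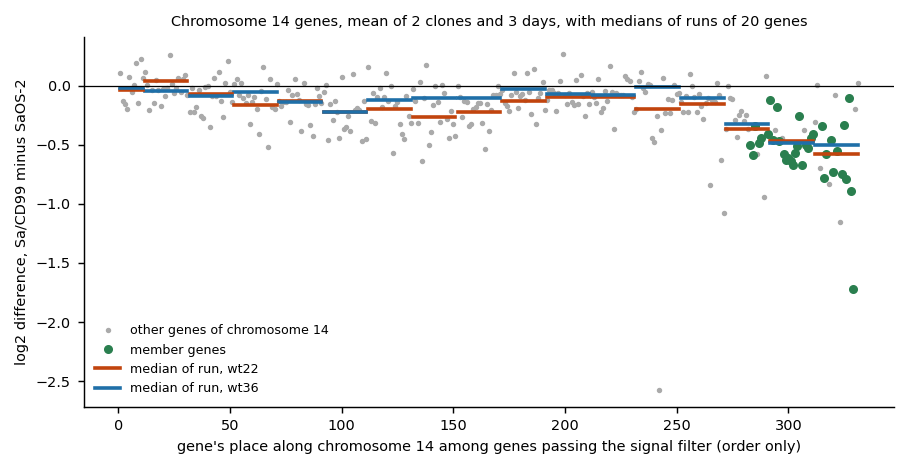
Each point is a gene of chromosome 14 that passed the signal filter, placed by its order from the centromere side (x axis) and its log2 difference between the clones and SaOS-2, averaged over both clones and 3 days (y axis), and lines are medians of runs of 20 genes for each clone. The lines lie between -0.27 and 0.04 over most of the chromosome and between -0.58 and -0.32 in the last 3 runs.

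Genes that lie in the same stretch without being members were described too. From YY1 to the end of 14q there were 47, with a median of 0.00, of which 21 were lower and 17 higher in both clones. The 14 that passed the signal filter had a median of -0.37, and 10 of them were lower in both clones, against 29.8% of all passing genes. The filter depends on the lines here too: BEGAIN (-0.94) read 5.46 to 6.47 on the clone arrays and passed through parental arrays alone. The count of passing genes is therefore a description and not independent support. JAG2, a Notch ligand, read 11.32 and 11.19 at day 0, 10.91 and 10.84 at day 7 and 11.16 and 11.13 at day 14 in SaOS-2 and 9.94, 9.66 and 9.81 in clone wt22 and 10.13, 9.86 and 10.24 in clone wt36. AKT1, the kinase downstream of PI3 kinase, gave 9.95 and 9.82 at day 0, 9.73 and 9.69 at day 7 and 10.22 and 10.17 at day 14 in SaOS-2 and 8.89, 8.93 and 9.51 in clone wt22 and 9.12, 8.80 and 9.37 in clone wt36. Neither gene overlapped between the lines, with mean differences of -1.15 and -0.83. KIF26A, an atypical kinesin, read 7.45 and 7.52 at day 0, 7.61 and 7.54 at day 7 and 8.20 and 8.12 at day 14 in SaOS-2 and 6.90, 7.12 and 7.32 in clone wt22 and 6.39, 7.05 and 7.46 in clone wt36. ATP5MJ, a small subunit of the mitochondrial ATP synthase, gave 12.39 and 12.39 at day 0, 12.22 and 12.13 at day 7 and 12.38 and 12.44 at day 14 in SaOS-2 and 12.06, 11.88 and 11.98 in clone wt22 and 12.08, 11.97 and 12.17 in clone wt36. Their mean differences were -0.70 and -0.30, without overlap between the lines among arrays of the same day. ANKRD9 read 10.33 and 10.21 at day 0, 10.14 and 10.07 at day 7 and 10.64 and 10.66 at day 14 in SaOS-2 and 9.82, 9.83 and 10.20 in clone wt22 and 9.82, 9.72 and 9.99 in clone wt36. COA8, a factor for cytochrome oxidase, gave 9.36 and 9.29 at day 0, 9.04 and 8.93 at day 7 and 9.24 and 9.34 at day 14 in SaOS-2 and 8.88, 8.65 and 8.84 in clone wt22 and 8.97, 8.61 and 9.01 in clone wt36. SLC25A29, a mitochondrial carrier, had 8.48 and 8.38 at day 0, 8.20 and 8.29 at day 7 and 8.49 and 8.40 at day 14 in SaOS-2 and 7.74, 7.66 and 8.08 in clone wt22 and 7.76, 7.56 and 7.98 in clone wt36. These 3 were also below both parental arrays on every day. On the centromere side, the last passing gene before EML1 was CCDC85C, at -0.53 in clone wt22 and -0.21 in clone wt36, against -0.55 and -0.46 for EML1. On the far side, TEDC1 follows CRIP2, the last passing member, at -0.17 in clone wt22 and -0.23 in clone wt36, below both parental arrays on every day. Beyond TMEM121 the next passing gene was ELK2AP, which read 7.31 and 7.11 at day 0, 7.34 and 7.50 at day 7 and 7.64 and 7.56 at day 14 in SaOS-2 and 7.31, 7.56 and 7.57 in clone wt22 and 7.29, 7.37 and 7.49 in clone wt36. It overlapped the parental arrays, with mean differences of 0.07 in clone wt22 and -0.02 in clone wt36. DLK1 and MEG3 stayed below the signal filter, with mean levels of 5.14 and 5.99.

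Over the 35 members that passed the signal filter, the mean differences of clone wt22 and clone wt36 correlated with r = 0.78 and rho = 0.67. Both clones were compared with the same parental arrays, which the points share, so this is a description only. To compare the clones directly, a clone effect common to the 3 days was fitted, which does not involve the mean of the clones. The group was named for genes lowered in both clones, however, so agreement between the clones may have entered the choice. Members could also pass the filters of the test through the difference between the lines. The count of called members is therefore partly shaped by the choice. Of the 33 members tested, 2 were called (limma, Benjamini-Hochberg adjusted p at most 0.05 and at least 1.5-fold), against 6.71% of 6644 genes. BTBD6 was higher in clone wt36 than in clone wt22 by 0.59 ± 0.09 (SE; limma adjusted p = 0.00216), on each of the 3 days. CKB was lower in clone wt36 by 0.65 (difference -0.65, SE 0.19; limma adjusted p = 0.0415), with the clone arrays at 10.05 and 10.09 at day 0. XRCC3 differed by -0.23 (limma adjusted p = 0.0302) and stayed under 1.5-fold. Neither call passed when the 6 clone arrays were fitted alone (limma adjusted p = 0.0558 for BTBD6 and 0.184 for CKB). CKB also lost its call when the day 7 or day 14 arrays of a clone, or any single SaOS-2 array, were left out (limma adjusted p = 0.0673 to 0.169), and without a clone's day 14 array its difference was -0.33. BTBD6 without a clone's day 0 array stood at 0.46, under 1.5-fold.

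**Figure D3:**
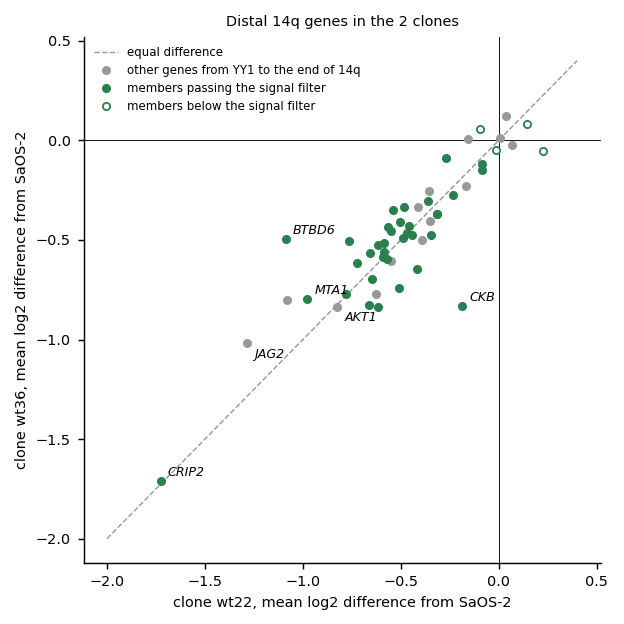
Each point is a distal 14q gene, with its mean log2 difference from SaOS-2 in clone wt22 on the x axis and in clone wt36 on the y axis, members in green (open below the signal filter) and other passing genes in grey. CRIP2 lies near the line of equal difference at the lower left, while BTBD6 and CKB lie on opposite sides of it.

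Time in osteogenic medium was tested within each line, a contrast that did not choose the members. Each gene had 1 estimate of spread shared by both lines. The SEs and p-values given for SaOS-2 therefore also carry the spread between the clones, which was larger than that between parental arrays. The filters of the test used the arrays of both lines, however, so members could pass them through the difference between the lines alone. Shares called and median changes are therefore not like for like between members and all tested genes, and no conclusion is drawn from that comparison. In SaOS-2 at day 7, 3 of 33 tested members were called against day 0, while 20.4% of all tested genes were called. At day 14 there were again 3, against 14.7% of genes. In Sa/CD99 there were 2 at day 7, against 15.8% of genes, and 3 at day 14, against 19.7%. The median change of the 33 was -0.24 and -0.06 at days 7 and 14 in SaOS-2 and -0.17 and -0.01 in Sa/CD99, against -0.04, -0.03, -0.02 and -0.03 over all genes tested.

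CRIP2 rose in both lines at both times. In SaOS-2 it rose by 1.05 ± 0.21 (SE; limma adjusted p = 0.00448) at day 7 and by 2.30 ± 0.21 (limma adjusted p = 0.000182) at day 14. In Sa/CD99 the rise was 0.72 ± 0.21 (limma adjusted p = 0.0254) at day 7 and 1.69 ± 0.21 (limma adjusted p = 0.000701) at day 14. The SE of 0.21 is common to both lines, whereas the SD between the parental CRIP2 arrays of a day was 0.03. The day 7 call in Sa/CD99 was lost without the wt22 array of day 7 (0.39; limma adjusted p = 0.142) or of day 0 (0.54; limma adjusted p = 0.115), and with only the arrays compared in the fit (limma adjusted p = 0.156). PPP2R5C rose at day 7, by 1.24 ± 0.18 in SaOS-2 (limma adjusted p = 0.00129) and 1.25 ± 0.18 in Sa/CD99 (limma adjusted p = 0.00131), and was not called at day 14. Its day 14 change was 0.43 in SaOS-2 (limma adjusted p = 0.0999). In Sa/CD99 it was 0.53 (limma adjusted p = 0.0468), which missed the 1.5-fold limit alone. RCOR1 fell at day 14 by 0.74 in SaOS-2 (limma adjusted p = 0.00227) and by 0.72 in Sa/CD99 (limma adjusted p = 0.00212), each with an SE of 0.11. TECPR2 rose at day 14 by 0.63 ± 0.10 in each line (limma adjusted p = 0.00253 in SaOS-2 and 0.00217 in Sa/CD99). Without the wt22 array of day 0, the TECPR2 rise in Sa/CD99 stood at 0.53, under 1.5-fold. With only the arrays compared in the fit, the Sa/CD99 calls of RCOR1 and TECPR2 were lost (limma adjusted p = 0.0788 and 0.0945). TNFAIP2 fell by 0.67 at day 7 in SaOS-2 (limma adjusted p = 0.0215) and was not called in Sa/CD99, but the difference between the lines in this change was 0.24 ± 0.27 (SE; limma adjusted p = 0.999). Its call did not pass without any 1 of the 4 SaOS-2 arrays of days 0 and 7 (limma adjusted p = 0.0856 to 0.0932).

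**Figure D4:**
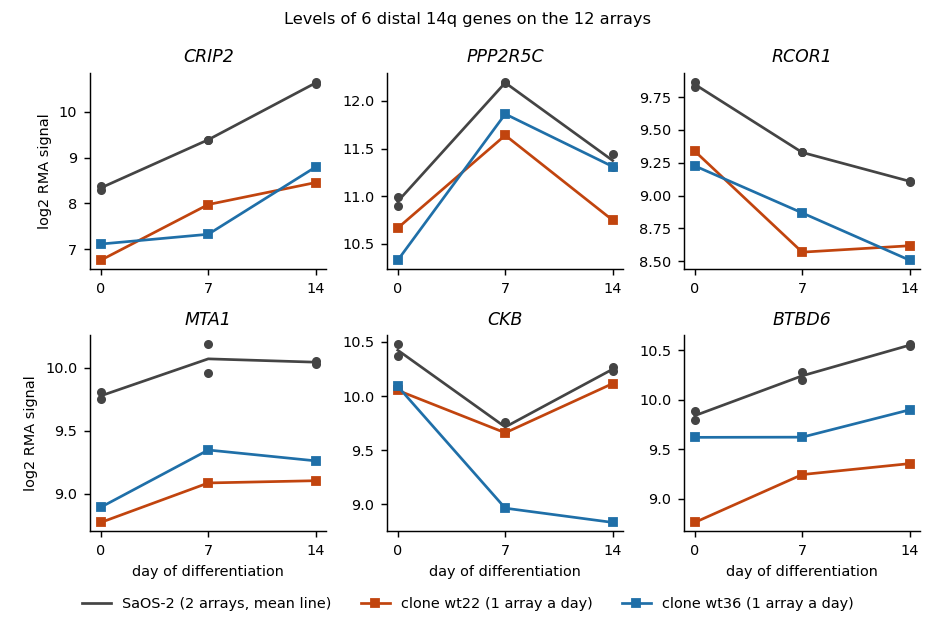
Log2 signals (y axis, own range in each panel) of 6 members on the 12 arrays against the day (x axis), with both parental arrays as dots about their mean line and 1 square per clone and day. CRIP2 climbs in all lines from day 0 to day 14 with the clones below, PPP2R5C peaks at day 7, and the clones of CKB part after day 0.

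Whether the change over time differed between the lines was tested with an interaction of line and day. No member was called at day 7 or day 14, and 0% of the 6644 genes were called at either time. At an unadjusted limma p under 0.05 there were 2 members at day 7 (EVL and CINP) and 1 at day 14 (EVL), each with an adjusted p of 0.999. The median SE of an interaction over the tested members was 0.17, against 0.12 for a change within a line. For CRIP2, whose rise was called in both lines, the interaction was -0.34 ± 0.29 (SE; limma adjusted p = 0.999) at day 7 and -0.60 ± 0.29 (limma adjusted p = 0.999) at day 14.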

How the data were processed

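Total RNA of SaOS-2 and of the clones labelled Sa/CD99 was hybridized to Affymetrix arrays, 1 array per sample. The values deposited by the authors are log2 signals, 1 for each probe set, from RMA (background correction, quantile normalization over arrays and a summary of each set's probes). Quantile normalization sets all arrays to 1 distribution, so differences are relative to the other genes. Of tools, the submitters' processing notes list affy and RMA. Their versions are not given in the sources used here. The number of arrays limits the precision.

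The members and lists were chosen with earlier results of these data known. Of 54613 probe sets other than 62 controls, 41091 named 1 gene, 1801 several and 11721 none, and 41037 of the first were matched by gene ID to GRCh38.p14, which was used for names and gene order. Following the study, probe sets whose signal did not exceed 100 on 9 or more of 12 arrays, or with an interquartile range (IQR) no larger than the median IQR, were left out of the tests. This left 12894 probe sets and 6644 genes. Group means were fitted over all 12 arrays by limma 3.58.1 (lmFit, then eBayes) under R 4.3.3, and the clone effect in a fit of its own over all 12 arrays. Calls required a Benjamini-Hochberg adjusted p of at most 0.05 and a change of at least 1.5-fold. The scripts were tested on simulated data. Differences between lines were described for all 39 members without a filter or test.

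Clone numbers mark the same transfected line on each day and so pair those arrays. Deviations from the group means correlated between days with r = 0.58, 0.32 and 0.63 for the clones, and with -0.04, 0.24 and -0.05 for the parental numbers, which mark nothing in the labels. Values on every array are printed for the 2 members of highest mean signal in each role group, the 4 lowest and 4 highest by difference, members called in a test, and members whose clones lie on opposite sides of SaOS-2. BAG5, AHNAK2, INF2 and CINP were described further after their values were seen. Non-members given are AKT1, JAG2, KIF26A, the passing genes at both edges and the 6 of highest mean signal. Alternatives changed the filter, normalization, control probe sets, annotation, pairing, arrays in the fit, probe set per gene, threshold, run length and single arrays.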

Additional observations from a re-analysis of the deposited data

How the results depend on the processing

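The members' median difference from SaOS-2 stayed negative in both clones on each day under every alternative run, with values of -0.54 (day 0), -0.54 (day 7) and -0.41 (day 14) in wt22 and -0.44, -0.45 and -0.55 in wt36 as reported. The yardstick here is the SD between the 2 parental arrays of the day, 0.01 to 0.04. With the mean over all probe sets of a gene the medians moved to -0.47, -0.40 and -0.34 in wt22 and, at days 7 and 14, to -0.41 and -0.44 in wt36. Quantile-normalizing the probe sets tested by themselves (33 members) gave -0.61, -0.57 and -0.47 in wt22 and -0.53 in wt36 at day 14. Centring each array on its median gave -0.43 in wt36 at day 7, and -0.39 in wt22 and -0.54 in wt36 at day 14. With the 35 members that passed the signal filter the medians were -0.47 (wt36, day 7), -0.47 (wt22, day 14) and -0.56 (wt36, day 14), and without sets whose ID ends in _x_at -0.43 (wt22, day 14). Leaving out 1 parental array gave -0.58 to -0.53, -0.56 to -0.53 and -0.46 to -0.44 in wt22 at days 0, 7 and 14, and -0.46 to -0.41, -0.44 to -0.42 and -0.54 to -0.53 in wt36. The median of the last run of genes was -0.65 with runs of 10, -0.50 with runs of 40 and -0.0054 with no signal filter, where the run reaches into the immunoglobulin genes. The median of the other genes of the segment turned from -0.37 to 0.00 (0.0044) with no signal filter.

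Counts of called members with an adjusted p alone, without a minimum fold, were 14 and 7 at days 7 and 14 in SaOS-2 and 15 and 9 in Sa/CD99. Quantile-normalizing the probe sets tested by themselves gave 5 in SaOS-2 and 4 in Sa/CD99 at day 7. Only the arrays compared gave 1 in Sa/CD99 at day 7 and 1 at day 14. Leaving out 1 array gave 2 to 4 and 3 to 4 in SaOS-2, 1 to 4 and 3 to 5 in Sa/CD99, and 1 to 2 between the clones. Between the clones 1 member was called with the signal filter alone, 1 with no filter and 0 with the 6 clone arrays alone. With the clone and replicate numbers as a replicate block, 4 members were called at day 7 and 4 at day 14 in SaOS-2, 3 and 3 in Sa/CD99, and 0 for both interactions. The block changed the call of no member called without it. In the interactions no member was called under any alternative. Over the 13 called results of members, 84 values under alternatives other than leaving out an array kept their call and 7 lost it, and with 1 array left out 137 kept it and 19 lost it, none with a change of sign. The cause of these shifts was not tested.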
